A study of Mus musculus with 18 samples.

Results

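The aminoacyl-tRNA synthetases are the enzymes that load each amino acid onto its transfer RNA. They were collected from the deposited table by gene symbol, as one amino acid letter followed by ars with or without a final digit, plus Farsa, Farsb, Fars2, Eprs and Tarsl2. The rule found 38 of 15137 symbols, and no expression value was used in it. All 38 were among the 10877 genes that reached the minimum level and were tested. There were 20 genes of the cytosolic enzymes, which together serve all 20 amino acids, and 17 genes of mitochondrial enzymes, whose symbols end in 2. Tarsl2 was kept apart, since its symbol also ends in 2 while its protein is a paralogue of the cytosolic threonyl enzyme.

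RNA sequencing of naive CD4+ T cells, sorted from mouse spleen as CD3+CD4+CD25-CD62L+CD44- cells on the C57BL/6J background, gave 18 libraries in 6 groups of 3. Cells labelled Creld1 cKO (a conditional knockout made with CD4-Cre) and control cells were each taken in 3 states: stimulated for 8 h (anti-CD3 plus anti-CD28, 1 µg/ml), kept for 8 h unstimulated, or fresh from the sort. CD4-Cre acts in developing thymocytes that carry both CD4 and CD8, so the deletion is not limited to the CD4 lineage. Ages are not part of the labels used here. The 3 libraries of a group carry 1 mouse number in the labels, so p-values rest on how far these libraries differ, and that spread may be only technical.

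Cytosolic synthetases supply the ribosomes that translate nuclear messages, while mitochondrial synthetases are made from nuclear genes, imported, and supply the separate ribosomes that translate the few messages of mitochondrial DNA. Several cytosolic enzymes sit together in the multi-synthetase complex, held by the scaffold proteins AIMP1, AIMP2 and EEF1E1, and the others are free. Mammals have no separate mitochondrial genes for the glycyl and lysyl enzymes, which are made from Gars and Kars, nor for a glutaminyl enzyme, since mitochondrial glutaminyl-tRNA is made by amidation of glutamyl-tRNA. In many mammalian cells the transcription factor ATF4, the effector of the amino acid and integrated stress responses, activates a set of cytosolic synthetase genes, and T cells that leave quiescence raise protein synthesis.

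All values are on the deposited log2 scale, in which 1 unit is a doubling, and differences are the first group minus the second. They were tested in a two-sided limma fit over all 10877 genes, and a gene was called where its p, adjusted by Benjamini-Hochberg, was below 0.05. Back on the linear scale the libraries summed to between 6782465 and 7419367, no pair of libraries was identical (0 pairs), and read depth is unknown. The naive CD4 markers reached the minimum level in 8 of 8 cases, as did 4 of 4 regulatory T cell markers, 3 of 5 memory markers, 2 of 6 CD8 T and NK markers, 1 of 5 B cell markers, 1 of 6 myeloid markers and 0 of 5 red cell and platelet markers. Creld1 averaged 4.38, 4.03 and 4.10 in stimulated, unstimulated and fresh cKO cells, against 4.74, 5.03 and 4.58 in control cells of the same conditions. Its cKO minus control differences of -0.36, -0.999 and -0.49 did not pass over all genes, and averaged over the states the difference was -0.62 ± 0.13 (SE), with an adjusted p of 0.34 by limma. The libraries also differed in how their values followed GC content, and the third fresh cKO library stood apart, with a GC slope of 0.16 where the other fresh cKO libraries had -0.19 and -0.31. The slope is the change in a library's log2 deviations per SD of transcript GC content.

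Per length of transcript, the cytosolic enzyme genes were expressed well above the mitochondrial ones. Dividing by length assumes that the deposited values are not already scaled to it, which the sources do not state. The levels, gap, order and pairs per kb below rest on that assumption. Before division the class means differed by between 1.17 in unstimulated control cells and 1.39 in fresh cells. The median level per kb of the longest transcript, averaged over all 18 libraries, was 7.47 for the 20 cytosolic genes and 5.28 for the 17 mitochondrial genes, a gap of 2.19 on the log2 scale. The gap was 2.19 as well when the mean transcript length was used. Cytosolic levels per kb ran between 6.05 for Aars, the alanyl enzyme, and 8.43 for Qars, the glutaminyl enzyme. The longest Aars transcript shares 22.1% of its 75-base windows with the neighbour Exosc6, so its length, and with it the value per kb, is uncertain. Below Qars came Nars (asparaginyl) at 8.26, Dars (aspartyl) at 8.25 and Kars (lysyl) at 8.06.

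Mitochondrial levels per kb spread more widely, between 4.34 for Aars2 and 9.73 for Lars2. Lars2, the mitochondrial leucyl enzyme, was the highest of all 38 genes, with values between 11.1 and 12.1 in the 18 libraries before division by length. Tars2 (threonyl) at 7.97, Cars2 (cysteinyl) at 7.39, Iars2 (isoleucyl) at 7.26, Hars2 (histidyl) at 7.02, Rars2 (arginyl) at 6.39 and Ears2 (glutamyl) at 6.24 lay within the cytosolic range. At the low end were Aars2, Pars2 (prolyl) at 4.55, Tarsl2 at 4.69, Nars2 at 4.80 and Wars2 (tryptophanyl) at 4.87. Among the 18 pairs of cytosolic and mitochondrial genes for the same amino acid, the cytosolic gene was higher per kb in 14 and lower in 4. In those 4 the cytosolic minus mitochondrial difference was -2.42 for Lars and Lars2, -1.14 for Tars and Tars2, -1.02 for Cars and Cars2, and -0.084 for Iars and Iars2.

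**Figure D1:**
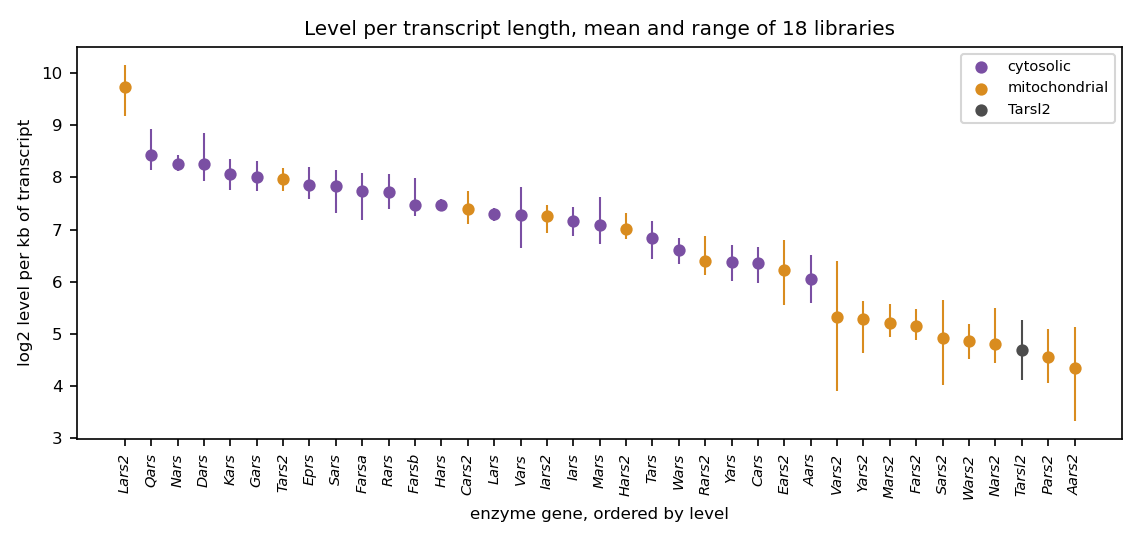
Level of 37 of the 38 genes per kb of its longest transcript (log2), as the mean of 18 libraries with a line for the range, in order of level. Lars2 stands highest at 9.73, and the low end below Aars holds mitochondrial genes and Tarsl2.

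The excess of the cytosolic over the mitochondrial class was highest in fresh cells. The mean over the cytosolic genes exceeded that over the mitochondrial genes by 1.28 ± 0.04 in stimulated cKO cells and 1.29 ± 0.07 in stimulated control cells. In unstimulated culture the excess was 1.29 ± 0.03 in cKO cells and 1.17 ± 0.06 in control cells, and in fresh cells it was 1.39 ± 0.05 and 1.39 ± 0.02 (SD, n = 3 each). In both genotypes every fresh library had a larger excess than every cultured library. Together the 38 genes took between 0.249% and 0.293% of the linear sum of a library. In whole-library data, fewer cells of a type and less RNA per cell cannot be told apart.

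**Figure D2:**
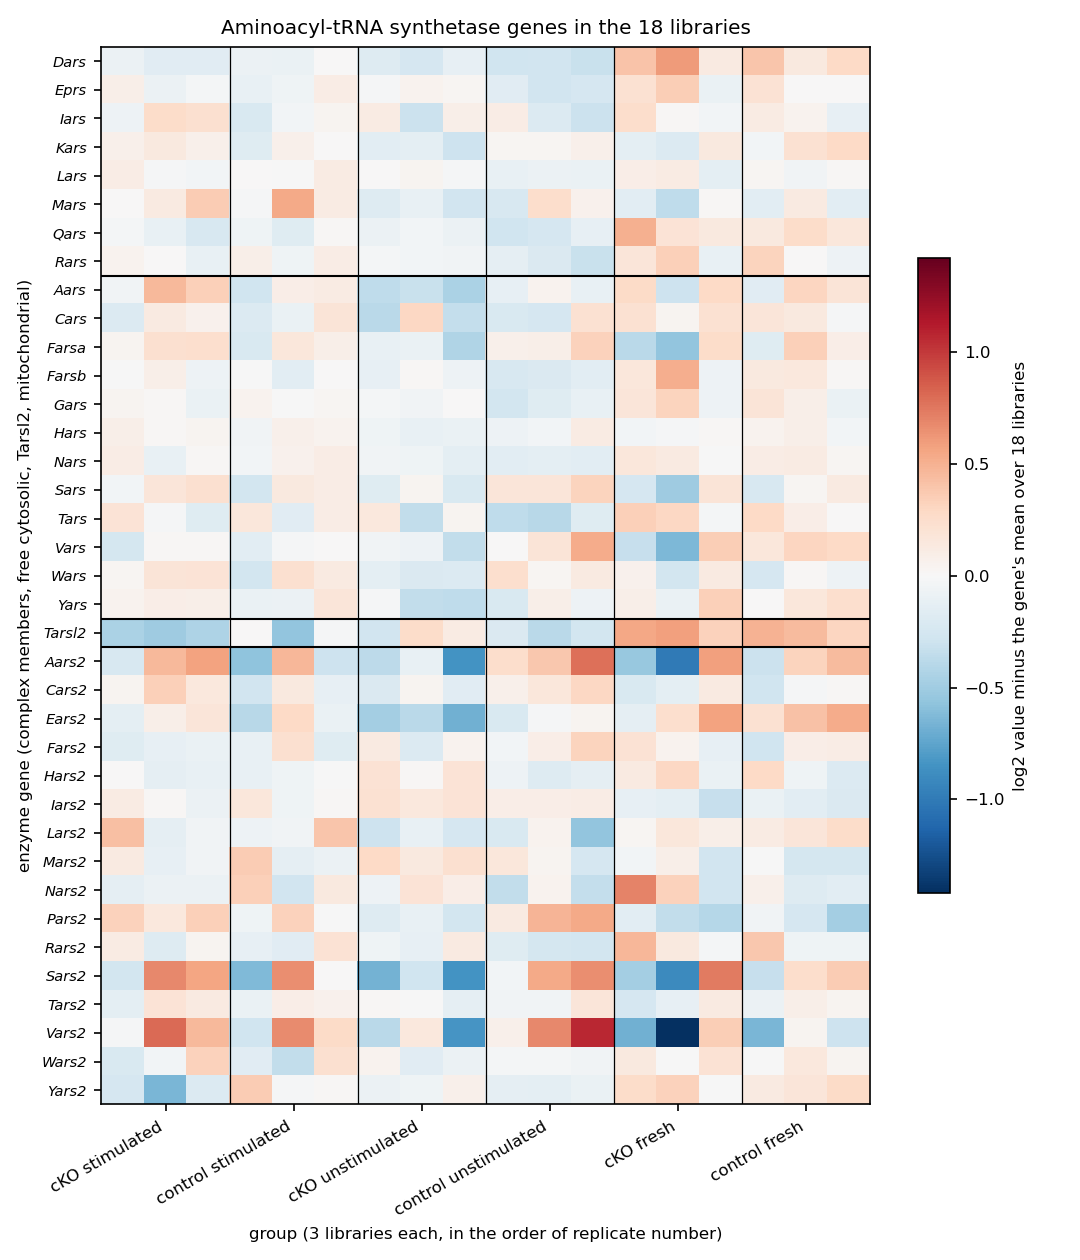
Each row is a gene (37 of the 38) and each column a library, coloured by the log2 value minus the gene's mean over the 18 libraries, with complex members, free cytosolic genes, Tarsl2 and mitochondrial genes separated by lines. Dars, Qars and Tarsl2 are high in the fresh libraries, while Aars2, Sars2 and Vars2 vary from library to library within groups.

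The comparison of 8 h of unstimulated culture with fresh cells asks what a period in medium without antibodies does to these genes. In cKO cells 4 of the 38 passed the threshold, where 22.1% of all tested genes did. Dars, Qars and the mitochondrial glutamyl enzyme gene Ears2 fell, and Iars2 rose. In control cells 8 of the 38 passed, beside 29.0% of all genes. Dars, Eprs (the fused glutamyl and prolyl enzyme), Nars, Qars, Tars (threonyl) and Tarsl2 fell, and Iars2 and Pars2 rose. The share of members called was below that of all genes in both genotypes. Groups did not overlap for 2 higher and 8 lower members in cKO cells, beside 31.9% of all genes, and for 6 higher and 15 lower members in control cells, beside 48.6%.

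The counts depended on single libraries and on the fit. Library weights called 18 members in cKO cells, where 48.4% of all genes were called, and 16 in control cells, where 50.3% were. Without the third fresh cKO library 10 members were called in cKO cells, where 30.6% of all genes were, and 14 in control cells, where 38.0% were. Without the first unstimulated control library 5 were called in control cells, where 23.9% of all genes were. A fit of the unstimulated and fresh cKO libraries alone called 0, where 7.70% of all genes were, with adjusted p of 0.0501 for Dars, 0.059 for Iars2, 0.069 for Ears2 and 0.12 for Qars by limma. Markers of other cell types moved with culture as well. The summed log2 level of the regulatory T cell markers was 8.89 to 8.99 in unstimulated cKO libraries and 9.56 to 9.78 in fresh ones, and 8.70 to 8.83 in unstimulated control libraries and 9.62 to 9.71 in fresh ones. That of memory and effector markers was 9.90 to 10.11 in unstimulated cKO libraries and 10.61 to 10.66 in fresh ones, and 9.98 to 10.09 in unstimulated control libraries and 10.57 to 10.70 in fresh ones. Myeloid markers were also lower, with 4.79 to 5.10 in unstimulated cKO libraries and 5.34 to 5.78 in fresh ones, and 4.76 to 4.86 in unstimulated control libraries and 5.26 to 5.61 in fresh ones. CD8 T and NK markers had 6.98 to 7.37 in unstimulated cKO libraries and 7.44 to 8.09 in fresh ones, and 7.30 to 7.55 in unstimulated control libraries and 7.57 to 8.09 in fresh ones. Naive CD4 markers were higher in culture, with 15.97 to 15.996 in unstimulated cKO libraries and 15.71 to 15.80 in fresh ones, and 15.94 to 15.95 in unstimulated control libraries and 15.68 to 15.71 in fresh ones. B cell markers were higher in control cells, with 5.19 to 5.54 in unstimulated libraries and 4.73 to 4.99 in fresh ones, and overlapped in cKO cells, with 4.94 to 5.11 and 4.75 to 5.13. The red cell and platelet markers overlapped in both genotypes. The part of these markers in the results was not tested.

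The median culture difference was -0.16 over the 20 cytosolic genes in cKO cells and -0.17 in control cells, beside -0.02 and 0.04 over all tested genes. Over the 17 mitochondrial genes it was -0.05 in cKO cells and 0.05 in control cells. Of the cytosolic genes, 15 had negative differences in both genotypes, 2 positive in both and 3 of opposite sign; of the mitochondrial genes, 6 were negative in both, 6 positive in both and 5 opposite. No library is shared between these comparisons, but the genes are not independent of each other. The called cytosolic genes, 2 in cKO and 5 in control cells, were all lower in unstimulated culture, a direction called for 11.4% and 14.1% of all genes, while 10.7% and 14.9% were called higher. Neither Gars nor Kars, which serve both compartments, was among the called genes. Of the 18 same-amino-acid pairs, the cytosolic gene's difference lay below its mitochondrial partner's in 11 in cKO cells and in 12 in control cells, and in 9 of these in both.

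**Figure D3:**
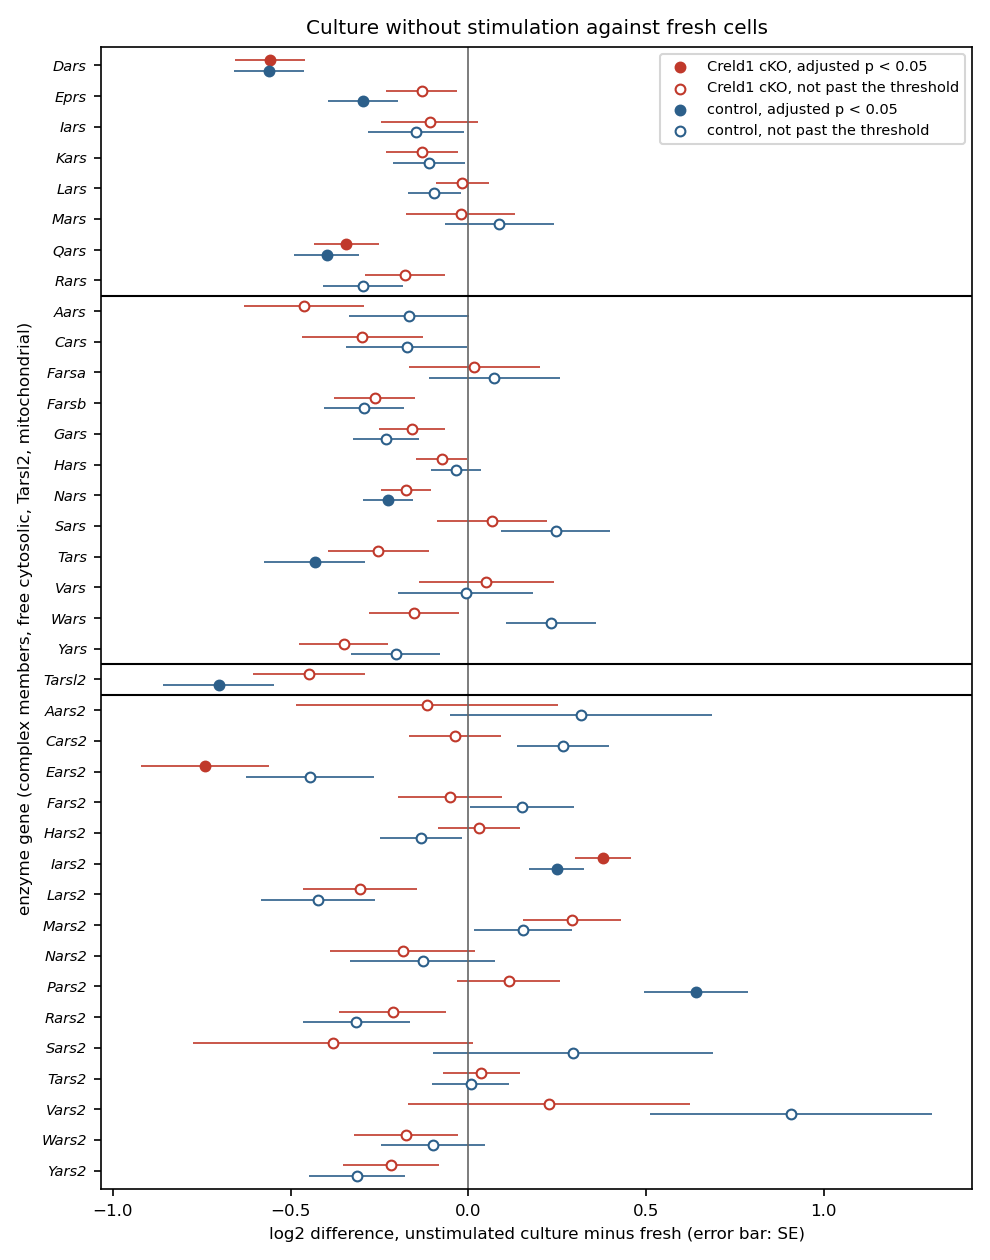
Difference between unstimulated culture and fresh cells (log2, with SE) for 37 of the 38 members, cKO cells in red above control cells in blue, filled where the adjusted p passed 0.05. Among cytosolic genes the filled points all lie below 0, with Dars near -0.56 in both genotypes, and among mitochondrial genes Ears2 lies below and Iars2 and Pars2 above.

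Dars, a member of the multi-synthetase complex on chromosome 1 (128363707 to 128417368, GRCm38), had 9.19, 9.13 and 9.25 in unstimulated cKO libraries, against 9.77, 9.98 and 9.50 in fresh cKO libraries. In control cells it had 9.09, 9.10 and 9.05 in unstimulated libraries, against 9.76, 9.51 and 9.65 in fresh libraries. All 6 unstimulated values lay below all 6 fresh values. The difference was -0.56 ± 0.10 (SE) in cKO cells, a level 0.679 times that of fresh cells, with an adjusted p of 0.00076 by limma, and -0.56 ± 0.10 in control cells with an adjusted p of 0.00064. Stimulated libraries were also low, with 9.29, 9.21 and 9.21 in cKO cells and 9.28, 9.28 and 9.38 in control cells.

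Qars, another complex member, on chromosome 9 (108507706 to 108515941), had 9.83, 9.88 and 9.83 in unstimulated cKO libraries, against 10.41, 10.10 and 10.05 in fresh cKO libraries. Unstimulated control libraries had 9.63, 9.68 and 9.80, against 10.05, 10.18 and 10.07 in fresh control libraries. The groups did not overlap in either genotype, and the first fresh cKO library was the highest of all 18. The difference was -0.34 ± 0.09 in cKO cells (adjusted p = 0.013, limma) and -0.40 ± 0.09 in control cells (adjusted p = 0.0048, limma). Without that fresh cKO library it was -0.23, with an adjusted p of 0.071 by limma.

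Eprs, Nars and Tars passed in control cells, with differences of -0.30 ± 0.10, -0.23 ± 0.07 and -0.43 ± 0.14 (adjusted p = 0.036, 0.025 and 0.033, limma). Tars had 8.47, 8.44 and 8.66 in unstimulated control libraries, against 9.11, 8.93 and 8.84 in fresh control libraries, which do not overlap. In cKO cells the same 3 genes differed by -0.13 ± 0.10, -0.18 ± 0.07 and -0.25 ± 0.14 and did not pass. These 3 calls in control cells were lost, up to an adjusted p of 0.15 for Eprs, 0.079 for Nars and 0.13 for Tars by limma, when single control libraries were left out: the second unstimulated, the third unstimulated or the first fresh for Eprs, the first or second of either state for Tars, and any but the third fresh for Nars. None of the other cytosolic genes passed in either genotype. Aars, Yars (tyrosyl), Farsb (the beta subunit of the phenylalanyl enzyme) and Rars (arginyl) had differences of -0.46, -0.35, -0.26 and -0.18 in cKO cells and -0.17, -0.20, -0.29 and -0.30 in control cells. Sars (seryl) and Farsa, the alpha subunit of the phenylalanyl enzyme, were above 0 in both genotypes. Cars, Gars, Hars, Iars, Kars and Lars were below 0 in both, and Mars (methionyl), Vars (valyl) and Wars differed in sign between the genotypes, all without passing.

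Tarsl2, on chromosome 7 (65644898 to 65692091), had 6.15, 5.98 and 6.11 in unstimulated control libraries, against 6.86, 6.82 and 6.67 in fresh control libraries, a difference of -0.70 ± 0.16 (adjusted p = 0.0038, limma). In cKO cells it had 6.09, 6.63 and 6.48, against 6.91, 6.94 and 6.69 in fresh libraries, and the difference of -0.45 ± 0.16 did not pass (adjusted p = 0.051, limma). The groups did not overlap in either genotype.

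Iars2, the mitochondrial isoleucyl enzyme gene on chromosome 1 (185284726 to 185329396), was the one member called higher in both genotypes. It had 9.93, 9.86 and 9.90 in unstimulated cKO libraries, against 9.60, 9.58 and 9.38 in fresh cKO libraries, and 9.80, 9.81 and 9.81 in unstimulated control libraries, against 9.62, 9.55 and 9.50 in fresh control libraries. All 6 unstimulated values lay above all 6 fresh values. The difference was 0.38 ± 0.08 in cKO cells (adjusted p = 0.0024, limma) and 0.25 ± 0.08 in control cells (adjusted p = 0.025, limma), the second being lost, up to an adjusted p of 0.085 by limma, without any 1 of the control libraries compared except the first fresh one. The kit does not mark strand, and 36.3% of the 75-base windows of the longest Iars2 transcript also occur in the antisense neighbour Rab3gap2. Rab3gap2 itself differed by -0.16 in cKO cells and -0.11 in control cells and did not pass. How reads from the shared stretches were assigned is not given, so the Iars2 differences are uncertain. The part of such reads was not tested.

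Ears2, on chromosome 7 (122037213 to 122067263), had 6.79, 6.88 and 6.58 in unstimulated cKO libraries, against 7.14, 7.50 and 7.83 in fresh cKO libraries. Its difference of -0.74 ± 0.18 passed in cKO cells (adjusted p = 0.0075, limma), and the groups did not overlap. In control cells it had 7.05, 7.25 and 7.31, against 7.48, 7.68 and 7.79 in fresh libraries, also without overlap, and the difference of -0.45 ± 0.18 did not pass (adjusted p = 0.074, limma). With the libraries' GC slope as a model term, Ears2 and Tarsl2 were called in both genotypes, with -0.72 and -0.66 for Ears2 and -0.46 and -0.60 for Tarsl2 in cKO and control cells. Pars2, on chromosome 4 (106651069 to 106655282), had 6.29, 6.64 and 6.70 in unstimulated control libraries, against 6.11, 5.92 and 5.68 in fresh control libraries, and rose by 0.64 ± 0.15 (adjusted p = 0.0042, limma). In cKO cells it had 5.97, 6.05 and 5.90, against 6.01, 5.81 and 5.76 in fresh libraries, groups that overlap, with a difference of 0.11 ± 0.15. The difference between the genotypes in the culture response of Pars2 was -0.53 and did not pass the threshold.

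The remaining mitochondrial genes did not pass in either genotype. Lars2, Nars2, Rars2, Wars2 and Yars2 were below 0 in both, with Lars2 at -0.30 ± 0.16 in cKO cells and -0.42 ± 0.16 in control cells. Mars2, Tars2 and Vars2 were above 0 in both, and Aars2, Cars2, Fars2, Hars2 and Sars2 differed in sign between the genotypes. Cars2 shares 15.3% of its windows with Naxd, which rose in culture by 0.46 in cKO and 0.70 in control cells, so that its differences of -0.04 and 0.27 are uncertain. Hars and Hars2 share 6.32% of the windows of the Hars transcript.

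**Figure D4:**
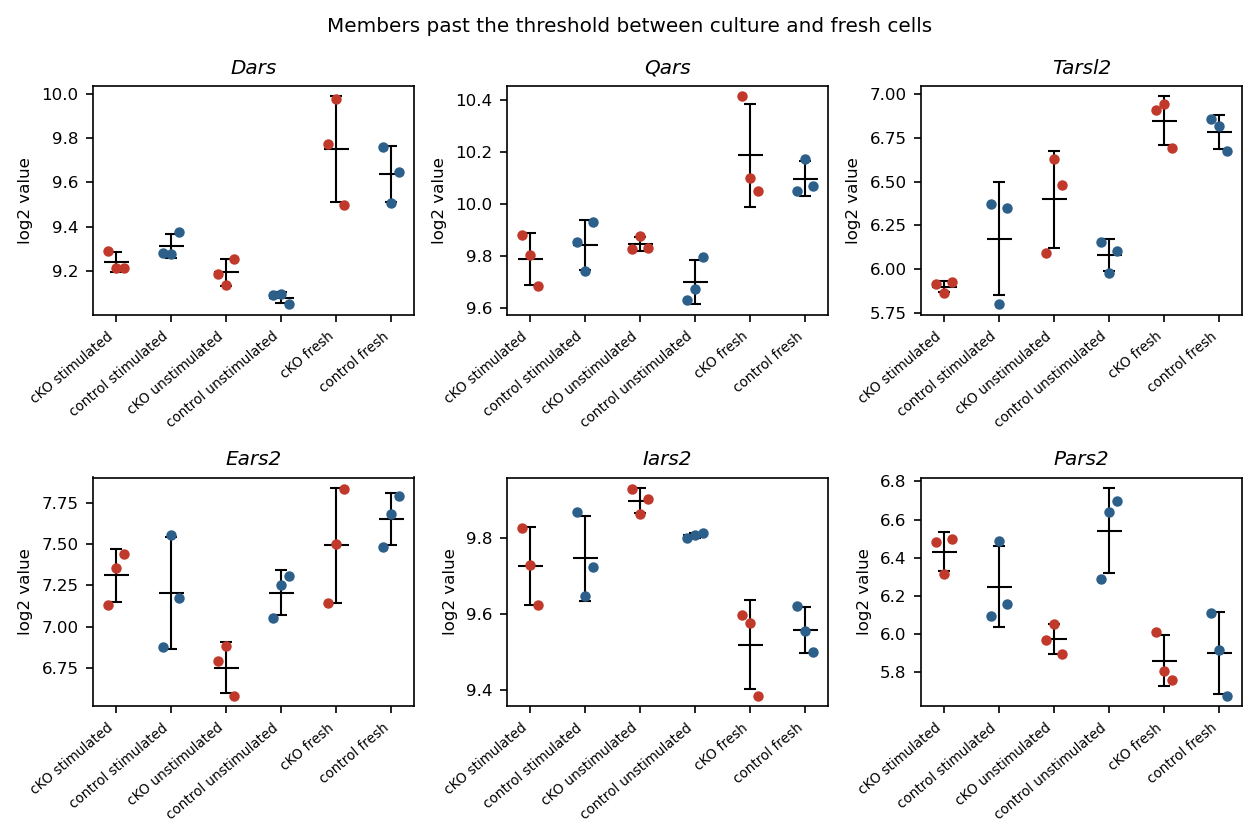
Log2 values of 6 members called in culture, with 3 libraries per group as points, cKO in red and control in blue, and the mean with SD in black. Dars, Qars and Tarsl2 are highest in the fresh groups, Iars2 is lowest there, and Pars2 is high in unstimulated control cells and lower in unstimulated cKO cells.

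Atf4 and some genes of its pathway fell in the same comparison. Of 14 tested genes of this list, 5 fell in cKO cells, beside 11.4% of all genes called lower, and 6 in control cells, beside 14.1%. The list's median difference was -0.38 in cKO cells and -0.36 in control cells, beside -0.02 and 0.04 over all genes. Trib3, an ATF4 target that restrains its activity, rose by 0.81 in cKO cells and 1.77 in control cells. Atf4 itself averaged 9.75 ± 0.07 in unstimulated cKO cells and 10.90 ± 0.18 in fresh cKO cells, and 9.97 ± 0.06 in unstimulated control cells and 10.88 ± 0.11 in fresh control cells (SD, n = 3 each). The differences were -1.15 ± 0.09 and -0.91 ± 0.09 (SE), with adjusted p of 3.3e-07 and 3.4e-06 by limma. Psat1 of serine synthesis fell by 0.86 in cKO and 0.83 in control cells, Mthfd2 of mitochondrial one-carbon metabolism by 0.57 and 0.67, and Slc3a2, the heavy chain of amino acid transporters, by 0.44 and 0.56. Myc, a transcription factor that raises biosynthetic genes in activated T cells, fell by 0.79 in cKO cells and did not pass in control cells. Its partner Max fell by 0.40 in cKO and 0.23 in control cells. Of the 3 scaffolds of the complex, Eef1e1 fell in control cells by 0.65, and Aimp1 and Aimp2 did not pass in either genotype.

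The promoters of the enzyme genes were searched for the core of the element bound by ATF4 with C/EBP partners, TGATGNAA, and for the E-box CACGTG, which Myc and Max bind, on both strands of the 250 bases before the RefSeq start (GRCm38.p6). RefSeq entries were matched for 28 of the 38 genes. Nars and Pars2, called in culture in control cells, were among those without an entry and were not searched. The first motif was present in 3 of 13 cytosolic and 0 of 14 mitochondrial promoters, and in 2.76% of the promoters of 11616 genes with deposited values. The stretches around it are shown for Gars and Tars, with the motif in capitals as it reads on the strand of the gene, where it appears as its reverse complement, at 30 and 15 bases before the start. They lie at chr6:55037960-55037989 (plus strand) and chr15:11399659-11399684 (minus strand).
Gars: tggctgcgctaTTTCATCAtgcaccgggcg
Tars: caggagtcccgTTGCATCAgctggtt

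The E-box was present in 3 of 13 cytosolic promoters, Farsb and Iars among them, in 0 of 14 mitochondrial promoters and in 8.94% of all. Of the genes with the first motif only Tars was called in culture, and in control cells only. Dars, whose fall was called in both genotypes, held neither motif in its window (chr1:128417417-128417666, minus strand), which is printed for comparison and has no letters in capitals. Qars and Iars2 held neither motif as well. The Qars window (108507755 to 108508004) lies inside the annotated gene, which starts at 108507706, so the bases before that start were not searched. The Tars2 window, counted among the 14 mitochondrial promoters, also lies inside its gene, and windows of some other genes lie wholly or partly inside theirs.
Dars: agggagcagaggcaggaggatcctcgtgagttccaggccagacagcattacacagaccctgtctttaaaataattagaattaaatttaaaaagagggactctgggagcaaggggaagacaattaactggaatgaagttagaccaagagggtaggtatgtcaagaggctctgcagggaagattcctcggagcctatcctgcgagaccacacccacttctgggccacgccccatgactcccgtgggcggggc

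Stimulation through CD3 and CD28, compared with unstimulated culture of the same duration, moved no synthetase gene past the threshold. In cKO cells 0 of 38 were called, beside 0.285% of all genes (31 genes), and in control cells 0 of 38, beside 0.349% (38 genes). Myc, Max and Atf4 were not called in this comparison in either genotype. At an unadjusted p below 0.05 there were 12 members in cKO cells, beside 23.1% of all genes, and 5 in control cells, beside 11.3%. Groups did not overlap for 10 higher and 6 lower members in cKO cells, beside 42.3% of all genes, and for 9 higher and 2 lower in control cells, beside 20.5%. With library weights 18 members were called in cKO cells, where 53.0% of all genes were, and 12 in control cells, where 24.8% were, and a fit of the 2 cKO groups alone called 9, where 22.5% of all genes were. The members' median difference was 0.09 in cKO cells and 0.05 in control cells, beside 0.01 and -0.02 over all genes. The cytosolic median was 0.11 in cKO cells and 0.10 in control cells, with 18 and 15 of the 20 genes above 0 and 13 above 0 in both genotypes. The mitochondrial median was 0.09 in cKO cells and -0.0036 in control cells, with 11 and 7 of the 17 genes above 0.

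Aars had the smallest p in cKO cells. Its values were 8.53, 9.03 and 8.92 in stimulated cKO libraries, against 8.22, 8.26 and 8.13 in unstimulated cKO libraries, groups that do not overlap, and the difference of 0.62 ± 0.17 had an adjusted p of 0.14 by limma. It passed, with an adjusted p of 0.049 by limma, when the third fresh cKO library was left out of the fit, which called 3.09% of all genes. In control cells Aars had 8.29, 8.67 and 8.69 in stimulated libraries, against 8.46, 8.62 and 8.47 in unstimulated libraries, a difference of 0.03 ± 0.17. In control cells the smallest p were those of Nars, Dars, Tars and Rars, with differences of 0.19 ± 0.07, 0.23 ± 0.10, 0.34 ± 0.14 and 0.25 ± 0.11 and adjusted p between 0.34 and 0.42 by limma. In cKO cells these 4 genes differed by 0.08, 0.05, 0.05 and 0.02. Differences of more than a doubling were outside the 95% interval for 35 of the 38 genes in each genotype, and for all 20 cytosolic genes.

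Set against fresh cells instead, and sharing libraries with the comparisons above, stimulated culture had 5 called members in cKO cells, beside 30.3% of all genes, and 2 in control cells, beside 18.8%. Groups did not overlap for 3 higher and 4 lower members in cKO cells, beside 32.7%, and for 1 higher and 5 lower in control cells, beside 34.2%. Without the third fresh cKO library 20 members were called in cKO cells and 4 in control cells, where 53.4% and 24.7% of all genes were. Fits of only the groups compared called 1 and 0, where 7.03% and 13.6% of all genes were. As in unstimulated culture, the summed regulatory, memory, myeloid, and CD8 T and NK markers of every stimulated library lay below those of every fresh library of its genotype. Dars was lower by 0.51 ± 0.10 in stimulated cKO cells (adjusted p = 0.0014, limma) and by 0.33 ± 0.10 in stimulated control cells (adjusted p = 0.029, limma). Tarsl2 had 5.91, 5.87 and 5.93 in stimulated cKO libraries and 6.37, 5.80 and 6.35 in stimulated control libraries. Its differences from the fresh libraries given above were -0.95 ± 0.16 (adjusted p = 0.00045, limma) and -0.61 ± 0.16 (adjusted p = 0.012, limma). Without the second stimulated control library the adjusted p of Tarsl2 in control cells was 0.063, and that of Dars there reached 0.11 when the first or second stimulated, or the first or the third fresh, control library was left out, both by limma. In cKO cells Qars was also lower, by 0.40 ± 0.09, and the mitochondrial tyrosyl enzyme gene Yars2 by 0.55 ± 0.14, while Pars2 was higher by 0.57 ± 0.15 (adjusted p = 0.0047, 0.0069 and 0.0086, limma). Yars2 had 6.53, 6.13 and 6.58 in stimulated cKO libraries, against 7.03, 7.10 and 6.76 in fresh cKO libraries, without overlap.

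The knockout comparison asks whether loss of Creld1 changes these genes. No member was called in stimulated cells (0 of 38, beside 0% of all genes), in unstimulated cells (0 of 38, beside 0%), in fresh cells (0 of 38, beside 0.00919%) or averaged over conditions (0 of 38, beside 0.0184%). At an unadjusted p below 0.05 there were 1, 11, 2 and 1 members in these comparisons, beside 1.47%, 33.2%, 3.94% and 8.28% of all genes. Groups did not overlap for 0 higher and 1 lower member in stimulated cells, beside 6.19%, for 12 higher and 11 lower in unstimulated cells, beside 52.1%, and for 0 in fresh cells, beside 4.31%. Without the third fresh cKO library 7 members were called in unstimulated cells, where 26.1% of all genes were, 4 in fresh cells, where 1193 of the 10865 genes tested were, and 4 averaged, where 14.9% were. With a block for the 3 runs of consecutive library numbers in the titles, Pars2 was the one member called in unstimulated cells, at -0.57 with an adjusted p of 0.048 by limma, where 8.15% of all genes were called. In unstimulated cells library weights called 21, where 56.3% of all genes were called, and a fit of the 2 groups compared alone called 14, where 35.3% were. Averaged over the 3 conditions, the median 95% interval reached 0.17 on the log2 scale to either side, and all 38 intervals lay within a doubling or halving. The lowest bound was -0.83 and the highest 0.50.

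The one member with an unadjusted p below 0.05 in stimulated cells was Yars2, at -0.48 ± 0.14. The unstimulated comparison held the largest differences. Sars2, the mitochondrial seryl enzyme gene, had 5.15, 5.54 and 4.98 in unstimulated cKO libraries, against 5.78, 6.36 and 6.48 in unstimulated control libraries. Aars2 had 5.72, 5.99 and 5.24, against 6.33, 6.47 and 6.87 in control libraries. Neither pair of groups overlapped, and the differences of -0.99 ± 0.39 and -0.91 ± 0.37 had adjusted p of 0.112 and 0.115 by limma. Vars2 differed by -0.96 ± 0.40, Pars2 by -0.57 ± 0.15 and Ears2 by -0.45 ± 0.18. Cytosolic differences ran from -0.40 for Vars to 0.25 for Tars. Within that range Sars, Wars and Kars had -0.34, -0.31 and -0.24 and Eprs had 0.25.

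These differences followed the GC content of the transcripts. Across the 38 genes, Pearson's r between GC content and the cKO minus control difference was 0.52 in stimulated cells, -0.83 in unstimulated cells and -0.73 in fresh cells. Across 10803 genes it was 0.56 in stimulated cells, -0.74 in unstimulated cells and -0.58 in fresh cells. These are descriptions across genes that share the same libraries. In unstimulated cells the 8 members of highest GC content (56.4% to 60.9%), among them Sars2, Aars2, Vars2, Ears2 and Vars, were all lower in cKO cells, and the 8 of lowest GC content (38.8% to 46.3%), among them Mars2, Dars, Rars2 and Nars2, were all higher. The GC slopes were -0.13, -0.07 and -0.19 in unstimulated cKO libraries and 0.06, 0.15 and 0.25 in unstimulated control libraries. These slopes were computed from the same values as the differences and did not overlap between the 2 groups. Slope and genotype therefore cannot be told apart in this comparison. In a model that includes the slope, the differences became 0.06 ± 0.15 for Sars2, 0.07 ± 0.14 for Aars2, 0.07 ± 0.17 for Vars2 and -0.08 ± 0.14 for Ears2, and again 0 members were called. Pars2, at 51.7% GC, kept a difference of -0.56 ± 0.17 in that model and did not pass (adjusted p = 0.68, limma).

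**Figure D5:**
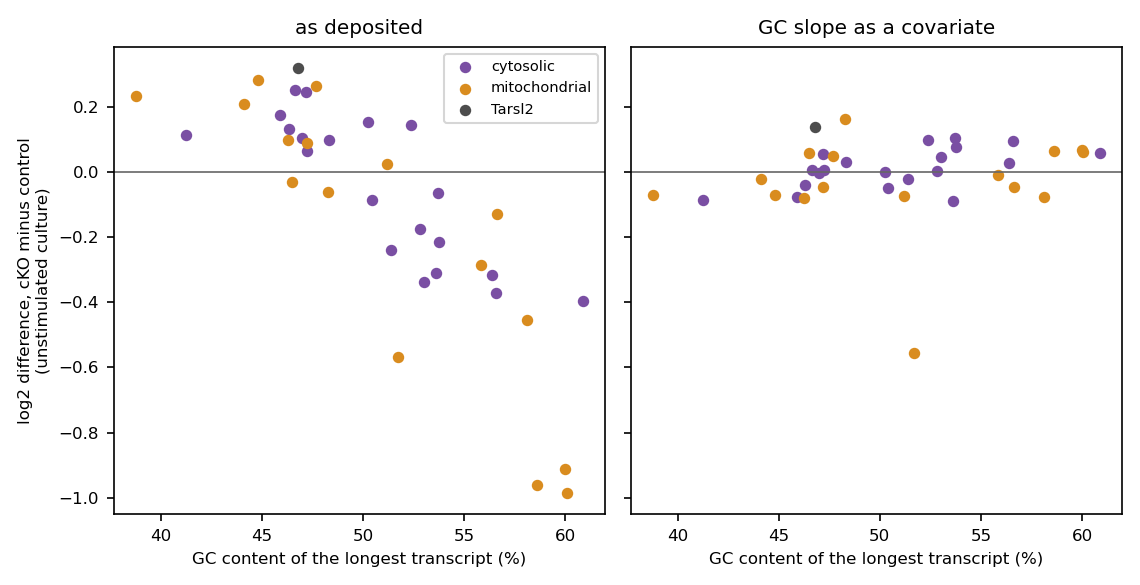
Difference between cKO and control cells in unstimulated culture (log2) for 37 of the 38 members against the GC content of its longest transcript (%), in the fit to the values as deposited (left) and in the model that includes the libraries' GC slopes (right). The GC-rich genes that reach -0.99 on the left lie near 0 on the right, where Pars2 at -0.56 is the lowest point. The slopes were computed from the same values and do not overlap between the genotypes here, so the right panel cannot separate slope from genotype.

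No member was called for a difference between the genotypes in its response to stimulation (0 of 38, beside 0.00919% of all genes) or to culture (0 of 38, beside 0%), with 11 and 2 at an unadjusted p below 0.05, beside 28.0% and 5.01%. Pars2 had the smallest p for stimulation. It had 6.48, 6.31 and 6.501 in stimulated cKO libraries, against 5.97, 6.05 and 5.90 in unstimulated cKO libraries, and 6.10, 6.49 and 6.16 in stimulated control libraries, against 6.29, 6.64 and 6.70 in unstimulated control libraries. The stimulation difference was 0.46 ± 0.15 in cKO cells and -0.29 ± 0.15 in control cells, and their difference of 0.75 ± 0.21 had an adjusted p of 0.17 by limma. It was 0.73 ± 0.23 in the model with the GC slopes and did not pass. The members' stimulation differences also followed GC content, with r = 0.72 in cKO cells and -0.70 in control cells, beside 0.66 and -0.61 across 10803 genes. In culture r was -0.07 in cKO cells and 0.44 in control cells, beside -0.035 and 0.36 across the same 10803 genes. In the model with the GC slopes, Dars differed in culture by -0.57 ± 0.06 in cKO cells and -0.45 ± 0.06 in control cells, and Iars2 by 0.37 ± 0.05 and 0.33 ± 0.05. With the GC slopes 14 members were called in culture in each genotype, where 45.3% of all genes were called in cKO cells and 42.9% in control cells.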

How the data were processed

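Per the labels' protocols, 10 ng of RNA from sorted cells went into each TruSeq version 2 library, sequenced as 75 bp single-end reads. Per the submitters' processing notes the tools were CASAVA 1.8, HISAT2 2.1.0, SAMtools 1.4, Partek 6.6 and DESeq2, with build mm10. Annotation, counting settings and transformation: not given in the sources used here. What the authors deposited are normalized log2 expression values, 1 per library and symbol, from -1.36 to 17.2, with base 2 read from their sums on the linear scale. Spread shrinks at low levels, which may understate differences of weakly expressed genes. No whole reads were recovered from them, so depth is unknown and count models were not run.

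Genes reaching 10 on the linear scale in 3 or more libraries were tested in 1 model of 6 group means (limma 3.58.1, R 4.3.3, trended empirical Bayes, 12 residual degrees of freedom), which was tested on simulated data. The simulated noise was drawn independently for each gene, so it held no shift shared by genes of like GC content. Groups came from titles. Transcript length, GC content, exon overlap and coordinates came from GENCODE M21. The members, lists, motifs and alternatives were chosen with earlier results of these data known. All members were open to naming, called ones and those of smallest p with values. Protein sequences were not used here, and values of 1 member and the promoter sequence of another are not reported here.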

Additional observations from a re-analysis of the deposited data

How the results depend on the processing

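The 53 member differences named by rule were recomputed under 28 alternatives, 1480 values in all. Of these 1377 kept their direction and their side of the threshold, 39 lost it, 62 gained it and 2 reversed: in the model with the GC slope, the unstimulated cKO minus control difference became 0.061 for Sars2 and 0.066 for Aars2. Counts of called members depended on how the spread was estimated. For stimulation in cKO and control cells, library weights (arrayWeights, gene by gene, since its default did not converge) called 18 and 12, and a fit of only the groups compared called 9 in cKO cells. For culture in cKO and control cells, weights called 18 and 16 and the GC slope 14 and 14, and the fit of only the groups compared called 0 in cKO cells. For stimulated against fresh in cKO and control cells, weights called 25 and 8, where 67.4% and 37.9% of all genes were. There the GC slope called 8 and 11, where 35.2% and 41.0% of all genes were, and only the groups compared 1 and 0, where 7.03% and 13.6% were. For cKO against control, weights called 21 in unstimulated cells, 17 in fresh cells and 18 averaged, where 56.3%, 50.7% and 47.6% of all genes were. In unstimulated cells only the groups compared called 14, where 35.3% were, and the block for runs of library numbers 1 (Pars2), where 8.15% were. For the interactions, weights called 24 with stimulation and 1 with culture, where 54.3% and 0.781% of all genes were. Only the groups compared called 6 with stimulation, where 22.1% of all genes were. Weights called between 0.781% and 67.4% of all genes in these comparisons. Leaving out each library in turn gave 0 to 1 called members for stimulation in cKO cells, 3 to 10 and 5 to 14 for culture in cKO and control cells, 5 to 20 and 1 to 4 for stimulated against fresh, 0 to 7, 0 to 4 and 0 to 4 for genotype in unstimulated cells, in fresh cells and averaged, and 0 to 4 for the stimulation interaction, each highest count without the third fresh cKO library. Without that library the share of all genes called was higher as well, as given above for each comparison except the interaction. For the interaction that share is not given here, so its count cannot be read as a result about the members. The cytosolic median minus the mitochondrial median moved too. It was 0.090 (quantile normalization) and 0.10 (GC slope) for stimulation in cKO cells, 0.20 (weights) in control cells, -0.0054 (quantile) for culture in cKO cells, 0.0082 (GC slope) for stimulated against fresh in cKO cells, -0.028 (quantile) and -0.047 (weights) in control cells, 0.095 for genotype in unstimulated cells with Tarsl2 counted as cytosolic, -0.015 (GC slope) for genotype averaged, 0.024 (weights) and -0.015 (GC slope) for the stimulation interaction, and 0.016 (quantile) and 0.0074 (weights) for the culture interaction. Without single libraries it ran from -0.0046 to 0.066 and 0.077 to 0.20 for stimulation in cKO and control cells, from -0.16 to -0.0070 and -0.27 to -0.17 for culture, from -0.16 to -0.028 and -0.13 to -0.017 for stimulated against fresh, from -0.077 to -0.0044, -0.00048 to 0.12 and -0.020 to 0.064 for genotype in stimulated, unstimulated and fresh cells, and from -0.033 to 0.10 and 0.0010 to 0.12 for the stimulation and culture interactions. The cause was not tested. The culture gap stayed below 0 in both genotypes under every alternative run. In cKO cells it came as close to 0 as -0.0054 (quantile normalization) and -0.0070 (1 library left out). Both lie within the spread of 0.048 (SD) that the class excess had between libraries of a group. Replicate numbers here follow accession order, so the blocked fit used the 3 runs of consecutive library numbers in the titles, and the labels do not say whether these were batches.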

Other observations

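Other steps of transfer RNA metabolism were measured in the same libraries, and each list is set beside the 22.1% of all genes called in culture in cKO cells and the 29.0% called in control cells. Of 15 tested genes for tRNA end processing and export, 1 was called in cKO cells and 2 in control cells. Of 6 elongation factor genes, 1 was called in cKO cells and 2 in control cells, and of 5 genes of a list named editing and proofreading, 1 in each. Pop4, a subunit of RNase P and RNase MRP, was lower in unstimulated culture than in fresh cells by 0.39 ± 0.10 (SE) in cKO cells and by 0.46 ± 0.10 in control cells (adjusted p = 0.0090 and 0.0027, limma). Xpot, the tRNA export receptor, was higher by 0.38 ± 0.12 in control cells (adjusted p = 0.028, limma). The elongation factor gene Eef1b2 was lower by 0.37 ± 0.08 in cKO cells and by 0.24 ± 0.08 in control cells, and Eef1a1 by 0.28 ± 0.09 in control cells (adjusted p = 0.0053, 0.045 and 0.033, limma). Of the editing and proofreading list, Dtd2 was higher by 0.36 ± 0.11 in cKO cells and Ptrh2 by 0.35 ± 0.09 in control cells (adjusted p = 0.027 and 0.0072, limma). None of the 4 genes for mitochondrial transamidation and formylation was called in culture in either genotype.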
